A study of Mus musculus with 58 samples.

Results

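Quadriceps muscle of mice that lack the chloride channel gene Clcn1 was compared with quadriceps muscle of BALB wild-type mice. The members were chosen by their titles, as all arrays of experiment 2, and make up 12 of the 58 arrays and 6 of the 34 mice of the series. The 3 Clcn1-null mice carry a Clcn1 knockout on the BALB background and the 3 wild-type mice are of the BALB strain. All 6 are given as male and 3 months old, and none was treated. The labels do not name the Clcn1 allele. Total RNA came from whole quadriceps, so each value is an average over fibres of all types and over the other cells of the muscle. The series as a whole asked which expression changes in muscle accompany an expanded CUG repeat RNA (transgenic lines 20b and 41), loss of Mbnl1, or loss of Clcn1. Each mouse of experiment 2 was measured on the Affymetrix array pair 430A and 430B.

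Clcn1 encodes ClC-1, the main chloride channel of the skeletal muscle membrane. Chloride current through it steadies the resting membrane and speeds repolarisation. Without it a single voluntary command can set off runs of action potentials, so the muscle relaxes slowly, which is called myotonia. Relaxation itself depends on the calcium pumps of the sarcoplasmic reticulum, and the fast and slow fibre types differ in the myosin, troponin and calcium-handling proteins they use.

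Values below are log2 intensities, with 1 probe set standing for each gene, and a gene was called when limma gave a Benjamini-Hochberg adjusted p under 0.05 over the 13244 genes tested. A change is the mean of the Clcn1-null mice minus the mean of the BALB wild-type mice on the log2 scale, with its standard error (SE), and n is 3 mice in each group unless a mouse is left out. The median intensity of an array lay between 298.5 and 317.3 on 430A and between 22.35 and 27.91 on 430B. Where further probe sets of a gene are given, their adjusted p comes from a fit of all 25944 tested probe sets. Of 107 called genes that the naming rule gave, 47 had further tested probe sets, 67 in all. Of these 60 changed in the same direction as the one standing for the gene, 22 also passed, and none passed in the opposite direction. Arrays give no read counts, so the number of mice limits the precision.

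Features of the samples bear on every result below. First, sex-linked genes went against the label in all 6 mice alike. Xist, the RNA of the inactive X chromosome, read 11.42 to 11.99 in the 6 mice of experiment 2 at its brightest probe set, against 1.58 to 4.41 in the 28 mice of the other experiments. The Y-linked gene Eif2s3y read 2.71 to 3.30 in experiment 2 and 11.20 to 12.37 in the other experiments, and the Y-linked genes Kdm5d and Uty were likewise at 2.60 or less in experiment 2. The mice are therefore called here only by genotype. At that probe set and in the Y-linked genes both groups read alike. The other Xist probe sets were dimmer and less even. One read 6.02, 7.15 and 6.81 in Clcn1-null mice, against 8.51, 8.52 and 7.87 in BALB wild type (change -1.64, adjusted p = 0.0598), and the other was high in Clcn1-null mouse 2 alone.

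Second, Clcn1-null mouse 3 stood apart from its group. Its arrays correlated with those of the other Clcn1-null mice at r = 0.937 and 0.942 on 430A and at 0.866 and 0.879 on 430B, across probe sets with a mean log2 intensity of at least 7. Every other pair within a group reached at least 0.977. In this mouse 1959 of 11647 genes (16.8%) lay more than 2-fold from the mean of the other Clcn1-null mice, 1514 of them lower, whereas the share was 6.80% for Clcn1-null mouse 1, 3.56% for Clcn1-null mouse 2 and 0.966% to 1.71% for the BALB mice. The genes it read highest included neutrophil genes, picked after their values were seen. S100a8, a neutrophil calcium-binding protein, read 8.70, 7.62 and 13.32 in Clcn1-null mice 1, 2 and 3, against 5.11, 5.83 and 4.34 in BALB wild type, and the neutrophil granule gene Ngp read 8.82, 9.53 and 12.45, against 9.55, 9.39 and 9.39. The genes it read lowest included S1pr3 and Uba6, also picked after their values were seen. S1pr3 read 9.81, 9.94 and 2.185 in Clcn1-null mice 1, 2 and 3, against 9.99, 9.80 and 10.62 in BALB wild type. Uba6 read 9.92, 9.585 and 4.11, against 10.33, 10.51 and 10.57. All genes were therefore also fitted without Clcn1-null mouse 3. Of the 106 called genes that the naming rule gave beside Clcn1, 105 stayed called in that fit, none changed direction, and the exception was Thrsp. The part of neutrophils in the other results was not tested.

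Of the 13244 genes, 715 were called (5.40%), of which 291 were higher (2.20%) and 424 lower (3.20%) in Clcn1-null muscle, and 196 and 287 of these changed at least 2-fold. The shares of 5.40%, 2.20% and 3.20% are the background for the list counts below. Without Clcn1-null mouse 3 the fit called 762 genes higher (5.78% of 13184) and 829 lower (6.29%). Of the 711 first calls that could still be tested, 697 remained called and none changed sign. Over all genes tested, the null mice all lay above the wild-type mice in 14.3% and all below in 16.7%. All 291 genes called higher and all 424 called lower had such groups without overlap. For a called gene, lack of overlap is therefore no further support. The number of calls moved with every mouse. It was 444 without Clcn1-null mouse 1, 274 without Clcn1-null mouse 2 and 1591 without Clcn1-null mouse 3, and 104, 265 and 94 without BALB mouse 1, 2 and 3. Of 104 called genes named below that could be followed through all 6 of these fits, 24 stayed called in each, among them Sln, Myh3, Atp2a2, Mrln, Mss51, Kcnab1, Smox and Lipe. None of the others changed direction, but each lost its call without at least 1 mouse.

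Clcn1 itself was represented by 1 probe set, and whether that probe set lies in the deleted or altered part of the gene was not known here. It read 9.30, 9.54 and 9.39 in Clcn1-null mice, against 10.96, 10.25 and 11.27 in BALB wild type. The groups did not overlap, and the nearest values were Clcn1-null mouse 2 and BALB mouse 2. The change was -1.42 (SE 0.27, adjusted p = 0.0407), which is 2.68-fold lower with signal left in every null mouse. Without Clcn1-null mouse 3 the change was -1.41 and the adjusted p 0.0509, and the call was also lost without Clcn1-null mouse 1 (adjusted p = 0.104), Clcn1-null mouse 2 (0.106), BALB mouse 1 (0.175) or BALB mouse 3 (0.139). Mbnl1, the splicing regulator removed in another experiment of the series, was not called (change -0.37, SE 0.12, adjusted p = 0.149), nor was the skeletal actin gene Acta1 (0.04, SE 0.20, adjusted p = 0.923).

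Promoter sequences are shown for Clcn1 and for 3 genes on which the results below turn, the embryonic myosin gene Myh3 and the Z-disc gene Myoz2, both higher, and the calcium pump inhibitor gene Mrln, lower. The sequences are those of RefSeq (GRCm38.p6), 250 bases before and 50 bases from each gene's start, on the gene's own strand. They lie at chr6:42286435-42286734 (plus strand) for Clcn1, chr11:67078050-67078349 (plus strand) for Myh3, chr3:123034938-123035237 (minus strand) for Myoz2 and chr10:70204414-70204713 (plus strand) for Mrln. Capitals mark matches, on either strand, to 3 motifs. These are a loose form of the site bound by MEF2 factors (CTA, any 4 bases, then TAG), TATAAA, the TATA box, and CAGGTG, an E-box sequence bound by bHLH and zinc finger factors. The loose form also takes sequences that are not MEF2 sites.
Clcn1: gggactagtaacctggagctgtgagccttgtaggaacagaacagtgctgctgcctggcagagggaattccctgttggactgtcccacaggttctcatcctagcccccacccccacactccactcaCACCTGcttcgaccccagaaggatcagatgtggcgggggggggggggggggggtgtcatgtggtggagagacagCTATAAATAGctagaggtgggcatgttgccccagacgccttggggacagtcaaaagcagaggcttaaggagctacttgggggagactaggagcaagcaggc
Myh3: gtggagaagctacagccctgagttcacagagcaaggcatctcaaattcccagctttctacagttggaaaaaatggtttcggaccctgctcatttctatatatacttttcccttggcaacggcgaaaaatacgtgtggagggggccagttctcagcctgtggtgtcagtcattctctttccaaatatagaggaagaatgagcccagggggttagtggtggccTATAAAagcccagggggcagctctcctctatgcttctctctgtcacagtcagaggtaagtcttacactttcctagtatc
Myoz2: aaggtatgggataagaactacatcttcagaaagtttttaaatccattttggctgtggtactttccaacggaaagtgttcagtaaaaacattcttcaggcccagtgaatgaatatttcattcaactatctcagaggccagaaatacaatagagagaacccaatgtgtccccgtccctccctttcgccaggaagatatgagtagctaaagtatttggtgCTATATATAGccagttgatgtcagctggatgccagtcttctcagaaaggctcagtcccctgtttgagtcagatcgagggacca
Mrln: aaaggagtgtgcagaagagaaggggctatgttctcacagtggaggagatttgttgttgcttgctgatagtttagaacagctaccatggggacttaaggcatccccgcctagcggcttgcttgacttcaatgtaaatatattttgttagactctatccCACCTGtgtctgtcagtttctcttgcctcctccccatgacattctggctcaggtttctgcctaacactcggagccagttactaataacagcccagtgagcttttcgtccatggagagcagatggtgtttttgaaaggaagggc
In the Clcn1 promoter the MEF2-type match (CTATAAATAG) begins 51 bases before the start and overlaps the TATAAA match. The Myoz2 match (CTATATATAG) begins 33 bases before the start, and the Myh3 promoter holds TATAAA 29 bases before the start. This loose MEF2-type motif was in the promoters of 3.54% of the 226 called higher genes with a sequence, 5.14% of the 331 called lower genes and 4.23% of all 27025 genes.

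That motif was 1 of 9 searched on both strands, and the genes printed and the motifs in capitals were chosen after the matches were seen. The share of all promoters was 15.7% for TATAAA, 22.6% for CAGGTG, 18.3% for CAGCTG, 8.09% for CACGTG, 18.1% for TGACCT and 26.1% for GGAAAA. It was 0.122% for a stricter MEF2-type motif (CTA, AAAA, then TAG) and 0.0481% for a pair of AGGTCA copies 1 base apart, which no called gene held. In the called higher genes TATAAA was found in 12.8%, CAGGTG in 22.1%, CAGCTG in 20.4%, CACGTG in 9.29%, TGACCT in 17.3% and GGAAAA in 28.3%. In the called lower genes the shares were 8.76%, 26.9%, 22.1%, 10.3%, 17.2% and 24.8% in the same order. The stricter MEF2-type motif was in 1 called lower gene and in no called higher gene. These shares lie near those of the tested genes, of which 10.2% held TATAAA and 21.8% held CAGGTG.

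The largest decreases were near losses of signal. Mettl11b, a protein N-terminal methyltransferase gene, read 4.84, 4.97 and 3.66 in Clcn1-null mice, against 13.33, 12.71 and 13.17 in BALB wild type. Every null value lay under an intensity of 32, so the gene was at least 269-fold lower (adjusted p = 0.000949). Neto2, an accessory subunit of kainate receptors, read 3.32, 2.52 and 1.98 in Clcn1-null mice, against 11.19, 10.57 and 10.86 in BALB wild type, at least 58.7-fold lower (adjusted p = 0.000949). A second tested probe set of Neto2 also read lower but was not called (-3.44, adjusted p = 0.18).

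Mss51, which encodes a mitochondrial protein of fast muscle, read 7.27, 6.77 and 6.36 in Clcn1-null mice, against 15.14, 14.04 and 14.86 in BALB wild type (change -7.88, SE 0.36, adjusted p = 0.000949). No null mouse came near the wild-type values. Gdap1, a protein of the mitochondrial outer membrane, read 5.11, 5.12 and 5.19 in Clcn1-null mice, against 12.50, 10.98 and 12.34 in BALB wild type (-6.80, SE 0.41, adjusted p = 0.00216). A second probe set of Gdap1 did not pass (-0.71, adjusted p = 0.28). Prkag3, the regulatory subunit of AMP kinase typical of fast glycolytic fibres, read 9.09, 8.71 and 8.36, against 13.47, 12.46 and 12.76 (-4.18, SE 0.32, adjusted p = 0.00389).

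Some large decreases were uneven among the null mice. Cdh4, an R-cadherin gene, read 7.46, 4.22 and 4.24 in Clcn1-null mice, against 12.73, 11.50 and 11.84 in BALB wild type (-6.71, SE 0.93, adjusted p = 0.0166). Smarca1, a chromatin remodelling ATPase, read 7.57, 3.80 and 3.57, against 10.93, 10.58 and 10.67 (-5.74, SE 1.06, adjusted p = 0.0369). In Cdh4, Smarca1 and Junos it was Clcn1-null mouse 1 that kept most signal, not mouse 3. The other null mice lay under an intensity of 32 in these 3 genes, so the size of their changes is not resolved. A second probe set of Cdh4 did not change in that way (0.28, adjusted p = 0.566). The other decreases among the 20 largest ran between -4.90 for Junos and -3.45 for Cbfb, the partner subunit of Runx factors. They included Col24a1, a fibrillar collagen (-4.85), Cyfip2 of the actin-regulating WAVE complex (-4.72), Pla2g7, which degrades platelet-activating factor (-4.71), Dkk3 (-4.47), the clone BE949265 (-4.33), Ddah1, which breaks down methylated arginine (-4.26), the integrin subunit Itga4 (-4.15), the amino acid transporter Slc38a4 (-3.96), Kazald1 (-3.64) and the glucose 6-phosphate transporter Slc37a4 (-3.59). The null mice read 4.993, 5.269 and 5.589 in Col24a1 and 5.015, 5.057 and 4.689 in BE949265, at or close to an intensity of 32. The size of these changes is therefore not resolved either. Second probe sets also passed for Dkk3 (-4.80, adjusted p = 0.016), Ddah1 (-3.67, adjusted p = 0.014) and Slc38a4 (-2.38, adjusted p = 0.0035), but that of Cyfip2 did not pass (-0.09, adjusted p = 0.78).

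Among the increases, Rarres1, a gene induced by retinoic acid, read 11.64, 11.11 and 8.92 in Clcn1-null mice, against 4.25, 4.96 and 5.14 in BALB wild type (5.77, SE 0.72, adjusted p = 0.0124). Clcn1-null mouse 3 was the lowest of the null mice, and without it the change was 6.59. BALB mice 1 and 2 lay under an intensity of 32, so the size of this change is not resolved either. Acsm3, a medium-chain acyl-CoA synthetase, read 12.96, 12.21 and 10.31, against 6.96, 6.92 and 7.80 (4.60, SE 0.69, adjusted p = 0.0212), again with mouse 3 the lowest. Hacd2, an enzyme that extends very long fatty acids, read 12.17, 11.88 and 11.60, against 7.31, 8.07 and 8.36 (3.97, SE 0.31, adjusted p = 0.00389), and a second probe set also passed (3.21, adjusted p = 0.025).

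Others of the 20 largest increases were Adgrg2, an adhesion receptor (4.37), Hp, which binds free haemoglobin (3.90), Sh2b2, an adaptor of insulin signalling (3.85), Ppp1r14bl (3.54), Mpzl2 (3.39), Mvd of cholesterol synthesis (3.33), Asns, the asparagine synthetase (3.09), Mucl1 (3.07), Prg4, the lubricant proteoglycan of joints and tendons (2.98), the metallothionein Mt1 (2.93) and the peroxisomal thiolase Acaa1b (2.87). Asns read 12.53, 11.96 and 11.41 in Clcn1-null mice, against 7.91, 9.40 and 9.33 in BALB wild type, with no overlap. It was the 1 called member of 24 tested genes of oxidative and ATF4 stress, where 5.40% of all genes were called. Sh2b2 had a second probe set with a change of 0.15 (adjusted p = 0.76), so its increase rests on 1 probe set. Second probe sets of Mt1 (0.63, adjusted p = 0.682), Mpzl2 (3.04, adjusted p = 0.148) and Asns (3.79, adjusted p = 0.0513) did not pass either. Every gene named here as 1 of the 20 largest changes either way kept its direction and its call without Clcn1-null mouse 3.

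**Figure D1:**
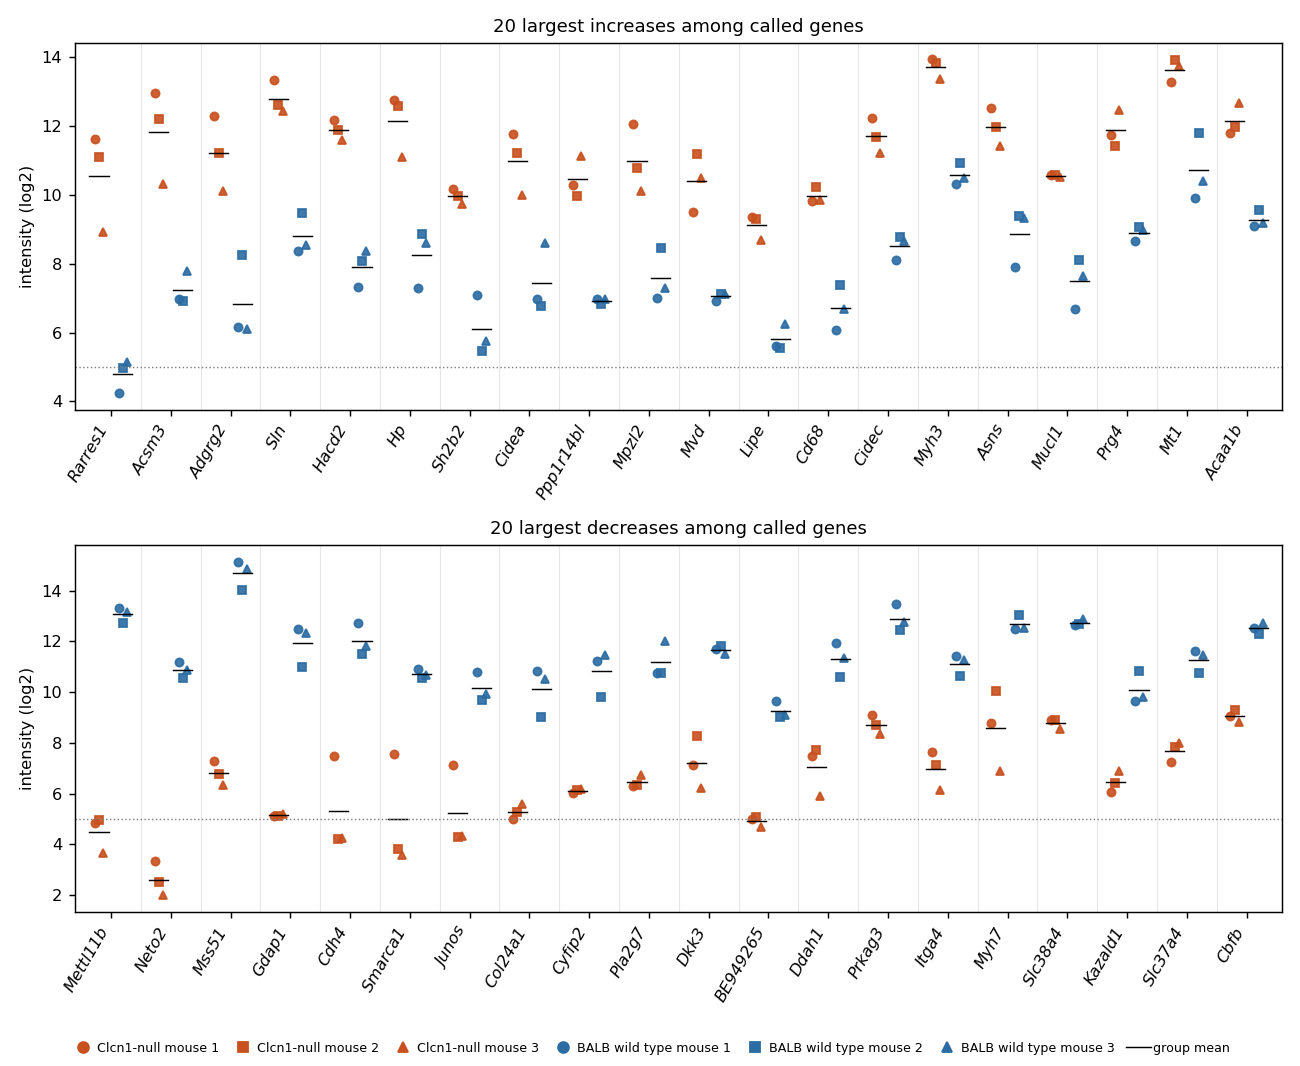
Log2 intensity in each mouse for the 20 called genes with the largest increases (top) and the 20 with the largest decreases (bottom); orange symbols are Clcn1-null mice, blue symbols BALB wild-type mice, shapes give the mouse number, short lines the group means, and the dotted line a log2 intensity of 5. The groups do not overlap in any gene drawn, as in every called gene, and the null values of Mettl11b and Neto2 lie under the dotted line.

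The calcium pump of slow fibres was lower and its inhibitor sarcolipin higher, while the pump of fast fibres read the same. Of 29 tested genes of excitation-contraction coupling and the calcium store, 2 were called higher (Sln and Casq2) and 6 lower (Atp2a2, Jph2, Cacna2d1, Cacna1s, Casq1 and Cacng1), so 8 of 29 were called, where 5.40% of all genes were. Leaving out Clcn1-null mouse 3 gave 3 and 10, and leaving out BALB mouse 1 or BALB mouse 3 gave 1 and 1. The median change over the list was -0.36, against 0.02 over all genes tested.

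Sln, the small membrane protein that inhibits the calcium pumps, read 13.34, 12.61 and 12.44 in Clcn1-null mice, against 8.37, 9.48 and 8.54 in BALB wild type. Every null value lay above every wild-type value, and the change was 4.00 (SE 0.37, adjusted p = 0.00597), or 4.17 without Clcn1-null mouse 3. Atp2a2, the slow and cardiac calcium pump SERCA2, read 12.55, 12.56 and 12.42 in Clcn1-null mice, against 14.56, 14.97 and 14.89 in BALB wild type (-2.29, SE 0.14, adjusted p = 0.00235). Of its 4 other tested probe sets, 1 passed with a change of -2.26, and the other changes lay between -0.53 and 0.08.

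Atp2a1, the fast pump SERCA1, read 15.52, 16.15 and 16.24 in Clcn1-null mice, against 15.90, 15.77 and 16.25 in BALB wild type. These ranges overlapped and the change was 0.00 (SE 0.23, adjusted p = 0.999). Mrln, which encodes the pump inhibitor myoregulin and is counted below with the embryonic and regenerating fibre genes, moved opposite to Sln. It read 10.49, 10.47 and 10.91 in Clcn1-null mice, against 13.60, 13.73 and 13.97 in BALB wild type (-3.14, SE 0.18, adjusted p = 0.00216).

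Calsequestrin, the calcium buffer of the store, has a slow or cardiac form, Casq2, and a fast form, Casq1, and these moved in opposite directions. Casq2 read 14.04, 14.19 and 13.31 in Clcn1-null mice, against 11.35, 12.40 and 11.74 in BALB wild type (2.02, SE 0.35, adjusted p = 0.0303). Casq1 read 13.92, 14.17 and 13.99, against 15.11, 14.86 and 15.12 (-1.005, SE 0.12, adjusted p = 0.0123). As in every called gene, the groups did not overlap.

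Of the lower genes in that list, Cacna1s, the pore of the muscle calcium channel that senses depolarisation, read 12.76, 12.56 and 12.54 in Clcn1-null mice, against 13.91, 13.71 and 13.90 in BALB wild type (-1.22, SE 0.12, adjusted p = 0.00729). Its accessory subunits changed by -1.30 (Cacna2d1, adjusted p = 0.0249) and by -0.67 (Cacng1, adjusted p = 0.0383), and Jph2, which tethers the junction between surface membrane and store, by -1.73 (adjusted p = 0.00789). Other probe sets of Cacna2d1 did not pass, with changes between -0.92 and 0.37. Ryr1, the release channel of the store, changed by -0.42 and was not called (SE 0.10, adjusted p = 0.0803). Its null values all lay below the wild-type values, as they did in 16.7% of all genes tested. Parvalbumin (Pvalb), the soluble calcium buffer of fast fibres, read 13.18, 13.84 and 14.77 in Clcn1-null mice, against 15.63, 15.47 and 15.85 in BALB wild type. It was not called (-1.72, SE 0.39, adjusted p = 0.0647), but passed without Clcn1-null mouse 3 (-2.13, adjusted p = 0.00915).

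**Figure D2:**
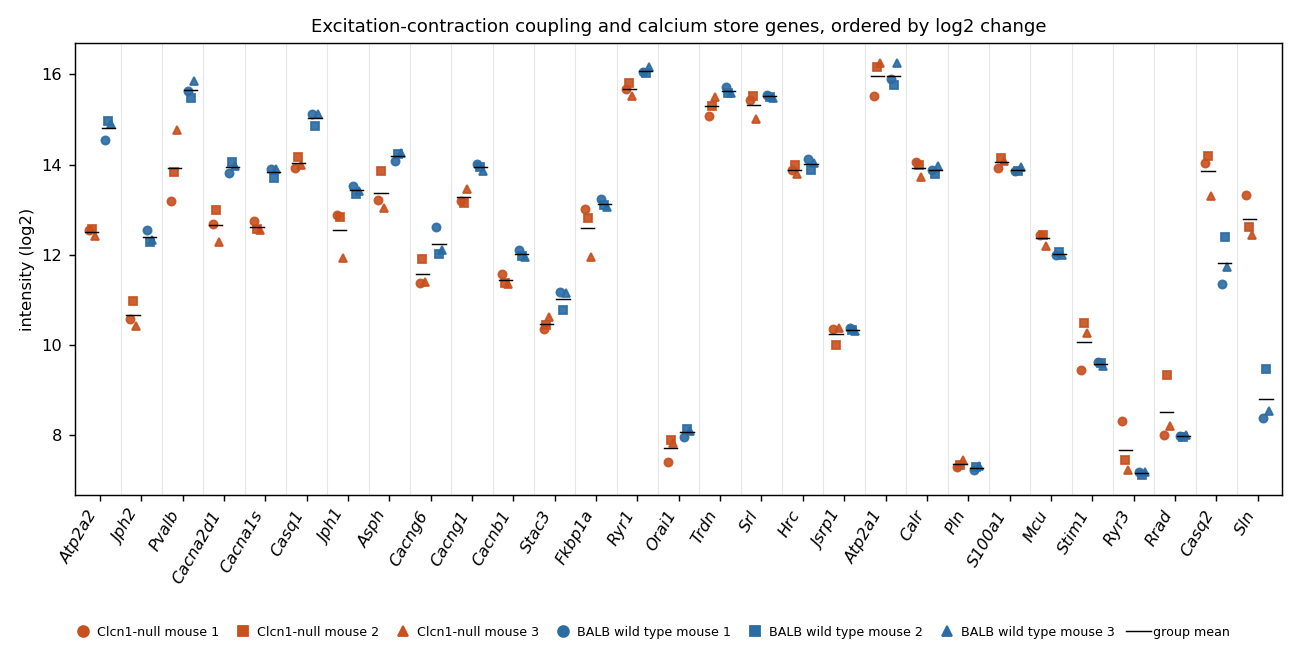
Log2 intensity in each mouse for the 29 tested genes of excitation-contraction coupling and the calcium store, ordered by log2 change; orange symbols are Clcn1-null mice, blue symbols BALB wild-type mice, shapes give the mouse number and short lines the group means. Atp2a2 at the left and Sln at the right are the ends of the order, and Atp2a1 overlaps between the groups.

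Slow fibre genes did not move as a block. Of 20 tested, 7 were called higher (Sln, Myoz2, Ankrd2, Casq2, Csrp3, Smtnl1 and Cox6a1) and 7 lower (Myh7, Tnni1, Tpm3, Tnnc1, Myl2, Atp2a2 and Tnnt1), with a median change of 0.12. The shares of all genes called higher and lower were 2.20% and 3.20%. With Clcn1-null mouse 3 left out the counts were 8 and 8, without Clcn1-null mouse 1 they were 5 and 2, without Clcn1-null mouse 2 they were 4 and 7, without BALB mouse 2 they were 6 and 1, and without BALB mouse 1 or BALB mouse 3 they were 1 and 1. The lower genes encode the myosin, troponin and tropomyosin of the slow contractile apparatus and its calcium pump. The higher ones include Z-disc and signalling proteins (Myoz2, Ankrd2 and Csrp3).

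Myh7, the slow myosin heavy chain, read 8.77, 10.06 and 6.90 in Clcn1-null mice, against 12.48, 13.03 and 12.53 in BALB wild type (-4.11, SE 0.77, adjusted p = 0.0373). Clcn1-null mouse 3 had the lowest value and the change without it was -3.27 (adjusted p = 0.0131). Tnni1, slow troponin I, read 9.16, 10.43 and 7.75, against 12.43, 12.62 and 12.48 (-3.40, SE 0.64, adjusted p = 0.0382, and -2.71 without mouse 3). The order of the null mice was the same in Myh7, Tnni1 and Tpm3, with mouse 2 highest and mouse 3 lowest.

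Tnnc1, slow and cardiac troponin C, changed by -2.44 (adjusted p = 0.0158), the regulatory light chain Myl2 by -2.42 (adjusted p = 0.0469) and slow troponin T (Tnnt1) by -1.76 (adjusted p = 0.0195). Tpm3, slow tropomyosin, changed by -3.35 (adjusted p = 0.0401) at the probe set that stands for it. Of its other tested probe sets, 1 passed at -2.79 and 3 did not pass, with changes between -0.21 and 0.44, so the probe sets of Tpm3 disagree. In bulk muscle, fewer fibres of a type and less RNA per fibre cannot be told apart.

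Myoz2, a calcineurin-binding Z-disc protein of slow fibres, read 14.87, 15.52 and 14.51 in Clcn1-null mice, against 12.44, 12.85 and 12.59 in BALB wild type (2.34, SE 0.27, adjusted p = 0.0104). Ankrd2, a stretch-responsive sarcomere protein, read 14.69, 15.31 and 14.54, against 12.34, 12.86 and 12.64 (2.23, SE 0.24, adjusted p = 0.00896). Csrp3, muscle LIM protein, read 14.84, 15.11 and 14.41, against 12.48, 13.01 and 13.01 (1.96, SE 0.23, adjusted p = 0.0114). In all 3 genes Clcn1-null mouse 2 was highest and mouse 3 lowest, and the changes without mouse 3 were 2.57, 2.38 and 2.14. Ankrd2 and Csrp3 were also the 2 called members of 22 tested genes of mechanical stress, where 5.40% of all genes were called.

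Of 22 tested fast fibre genes, 2 were called higher (Actn2 and Myh2) and 3 lower (Actn3, Casq1 and Mybpc2), with a median change of -0.10. Among all genes 2.20% were called higher and 3.20% lower. Without Clcn1-null mouse 3 the counts were 2 and 6, and without BALB mouse 1 or BALB mouse 3 they were 1 and 0. Actn3, the alpha-actinin restricted to fast fibres, read 13.40, 14.55 and 14.57 in Clcn1-null mice, against 16.09, 16.15 and 16.04 in BALB wild type (-1.92, SE 0.33, adjusted p = 0.0302). Actn2, an alpha-actinin that the list holds although all fibre types use it, read 15.26, 15.43 and 15.25, against 13.70, 13.63 and 13.77 (1.61, SE 0.10, adjusted p = 0.00253). The alpha-actinin genes thus moved in opposite directions.

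Of the adult fast myosin heavy chains only Myh2 passed with all mice. Myh2, the myosin of type 2A fibres, read 15.89, 15.75 and 16.02 in Clcn1-null mice, against 15.46, 15.31 and 15.34 in BALB wild type (0.52, SE 0.10, adjusted p = 0.0467). Myh4, the myosin of type 2B fibres, read 15.59, 15.48 and 16.46, against 16.69, 16.61 and 16.87. It was not called with all mice (-0.88, SE 0.27, adjusted p = 0.129) and passed without Clcn1-null mouse 3, the highest of the null mice (-1.19, adjusted p = 0.00613). Myh1, the myosin of type 2X fibres, did not pass (0.20, SE 0.08, adjusted p = 0.224). Mybpc2, the fast myosin-binding protein C, was lower by a change of -0.93 (SE 0.09, adjusted p = 0.00709).

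**Figure D3:**
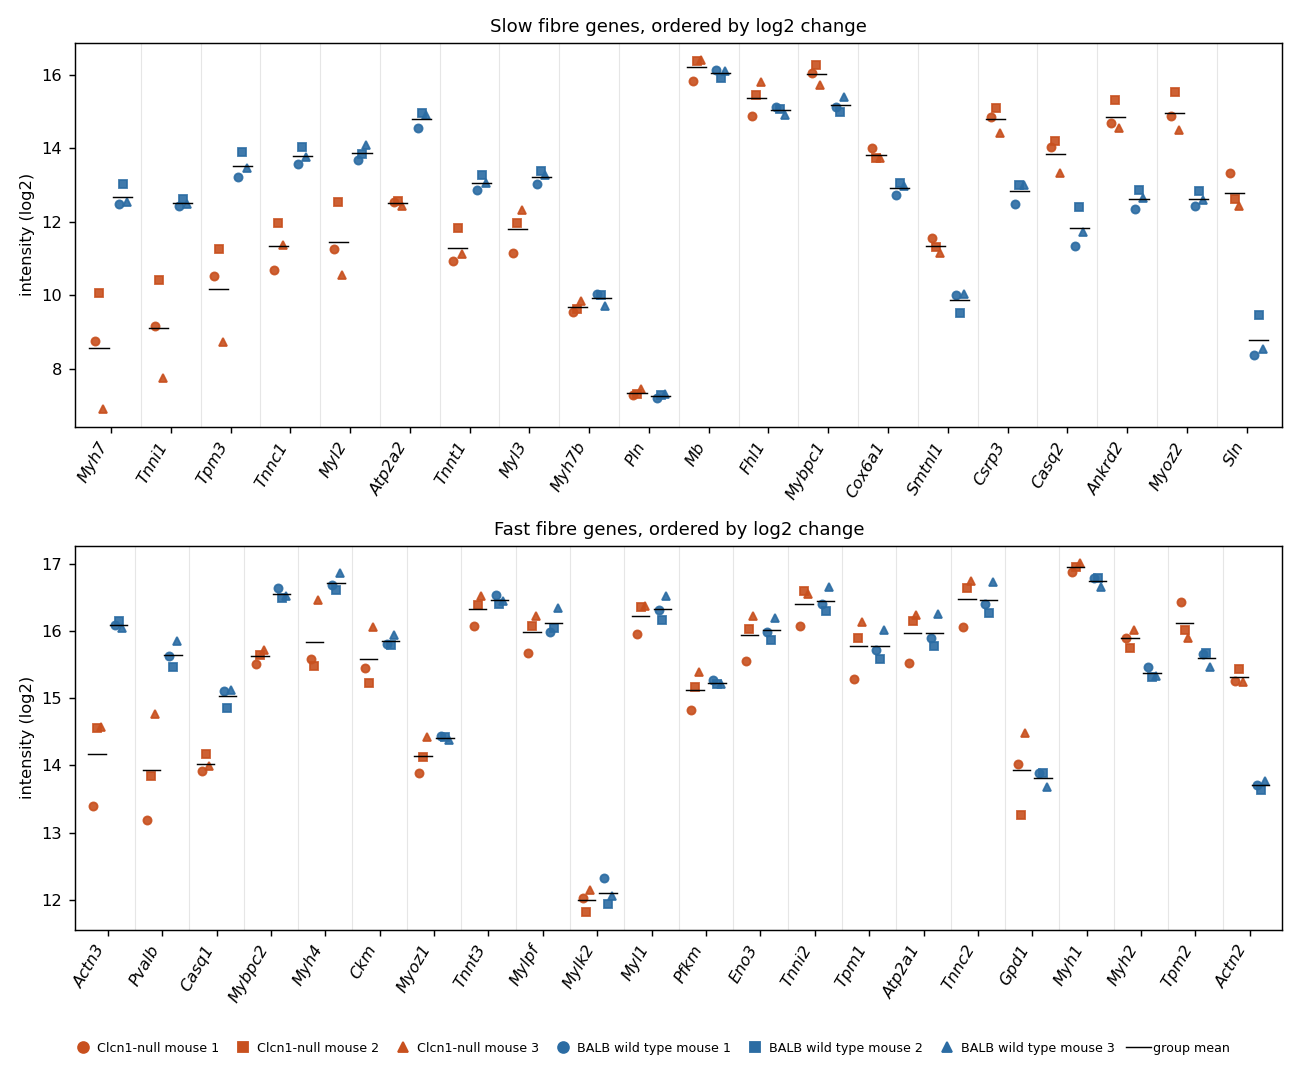
Log2 intensity in each mouse for the 20 tested slow fibre genes (top) and the 22 tested fast fibre genes (bottom), ordered by log2 change; orange symbols are Clcn1-null mice, blue symbols BALB wild-type mice, shapes give the mouse number and short lines the group means. Slow genes lie at both ends of the order, with 7 called each way, while in Myh7, Tnni1 and Tpm3 the null mice spread over more than 2 log2 units.

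Embryonic myosin was higher in the null muscle, while most genes of the same list did not pass. Of 22 tested genes of embryonic and regenerating fibres, 2 were called higher (Myh3 and Igf2) and 2 lower (Mrln and Actc1), with a median change of 0.16. Calls over all genes were 2.20% higher and 3.20% lower. Mrln, which this list holds, is the calcium pump inhibitor gene described above. Myh3, the embryonic myosin heavy chain, read 13.94, 13.82 and 13.36 in Clcn1-null mice, against 10.32, 10.93 and 10.49 in BALB wild type (3.12, SE 0.23, adjusted p = 0.00375). Igf2, a fetal growth factor, read 11.10, 11.68 and 11.77, against 9.55, 10.15 and 9.91 (1.65, SE 0.25, adjusted p = 0.0214), and its second probe set did not pass (0.16, adjusted p = 0.57). Actc1, cardiac actin, which fetal and regenerating muscle uses, changed by -2.38 (SE 0.43, adjusted p = 0.0359).

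Growth signalling genes moved in both directions, with 3 of 28 called higher and 3 lower, where 2.20% and 3.20% of all genes were. None of the 28 was called without Clcn1-null mouse 2, BALB mouse 1 or BALB mouse 3. Igfbp3, a carrier of insulin-like growth factors, read 14.10, 13.66 and 13.02 in Clcn1-null mice, against 10.41, 11.90 and 10.74 in BALB wild type (2.57, SE 0.46, adjusted p = 0.0341). Igfbp5, another such carrier, read 9.57, 9.69 and 11.21, against 13.45, 13.05 and 13.13 (-3.05, SE 0.45, adjusted p = 0.0208). Clcn1-null mouse 3 was nearest to wild type in Igfbp5, and the change without it was -3.58. The second tested probe set of Igfbp5 did not pass (-0.13, adjusted p = 0.666). Smad3 and Acvr2a, a signal transducer and a receptor of the myostatin pathway, changed by -0.94 (adjusted p = 0.0369) and -0.89 (adjusted p = 0.045), and a second probe set of Smad3 did not pass (-0.30). Foxo1, a transcription factor of muscle wasting, was higher at all 3 of its tested probe sets, with changes of 1.17, 1.58 and 1.01. Of 28 genes of ubiquitin ligases, autophagy and atrophy, Foxo1 and Mt1 were called higher and Asb2 lower (-1.07, adjusted p = 0.0376).

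Ion channel genes other than Clcn1 also changed. Of 13 tested chloride channel genes, 2 were called higher (Clic4, 0.96, and Ano6, 0.94) and 2 lower (Clcn1 and Ostm1), where 2.20% and 3.20% of all genes were. None of the 13 was called without BALB mouse 1 or BALB mouse 3. Ostm1, the beta subunit of the lysosomal chloride transporter ClC-7, read 11.19, 11.38 and 11.07 in Clcn1-null mice, against 12.78, 12.46 and 12.94 in BALB wild type (-1.51, SE 0.17, adjusted p = 0.00968). Second probe sets of Ano6 and Clic4 did not pass.

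Of 16 tested potassium channel genes none was called higher and 3 were called lower, where 2.20% and 3.20% of all genes were. Kcnab1, a beta subunit of voltage-gated potassium channels, read 8.93, 8.66 and 9.19 in Clcn1-null mice, against 10.80, 11.05 and 11.08 in BALB wild type (-2.05, SE 0.18, adjusted p = 0.00542). Kcnc4, a fast voltage-gated potassium channel, read 10.47, 10.67 and 10.59, against 12.73, 12.21 and 12.42 (-1.88, SE 0.17, adjusted p = 0.00544). Kcnq5, which carries an M-type current, changed by -1.15 (SE 0.19, adjusted p = 0.0276). As in every called gene, the groups did not overlap. A second probe set of Kcnc4 (-0.41, adjusted p = 0.38) and of Kcnq5 (-1.37, adjusted p = 0.09) did not pass.

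Among 11 genes of sodium channels and the sodium pump, the pump subunit Atp1b2 read 9.93, 10.04 and 10.76 in Clcn1-null mice, against 12.60, 12.23 and 12.72 in BALB wild type (-2.28, SE 0.27, adjusted p = 0.0103). Its second probe set did not pass (-0.37, adjusted p = 0.443). The pump regulators Fxyd6 and Fxyd5 were higher, by 1.28 (adjusted p = 0.0123) and 0.77 (adjusted p = 0.0364). No gene of this list was called without BALB mouse 1 or BALB mouse 3. The muscle sodium channel gene Scn4a had no probe set that named it alone.

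In calcium signalling, 4 of 24 genes of calmodulin kinase, calcineurin and NFAT were called, where 5.40% of all genes were. The kinase genes Camk2a (-1.47, adjusted p = 0.00905), Camk1 (-1.22, adjusted p = 0.0263) and Camk2g (-0.82, adjusted p = 0.0378) fell, while Camk2b (-0.38, adjusted p = 0.363) and Camk2d (-0.93, adjusted p = 0.141) did not pass, Myoz2 rose, and the median change was -0.50. Camk2a read 12.59, 12.93 and 12.51 in Clcn1-null mice, against 14.35, 14.09 and 14.02 in BALB wild type, and its 3 other tested probe sets did not pass, with changes from -1.29 to -0.11. Second probe sets of Camk1 (-0.87, adjusted p = 0.0509) and Camk2g (-0.56, adjusted p = 0.383) did not pass either. When Clcn1-null mouse 3 was left out, 2 genes of this list were called higher and 6 lower, and without BALB mouse 1 or BALB mouse 3 none was.

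Among 33 tested genes that serve fatty acid uptake and oxidation, 7 were called higher and none lower, where 2.20% and 3.20% of all genes were. Of the 33, 29 had a change above 0 and the median change was 0.48. The count of higher genes was 8 without Clcn1-null mouse 3, 4 without Clcn1-null mouse 1 or BALB mouse 2, and 2 without Clcn1-null mouse 2, BALB mouse 1 or BALB mouse 3. Lipe, hormone-sensitive lipase, read 9.37, 9.30 and 8.69 in Clcn1-null mice, against 5.60, 5.54 and 6.26 in BALB wild type (3.32, SE 0.27, adjusted p = 0.00472). Pnpla2, the lipase that starts triglyceride breakdown, read 13.09, 13.13 and 12.93, against 11.25, 11.34 and 11.18 (1.79, SE 0.12, adjusted p = 0.00299). Second probe sets of Lipe and Pnpla2 did not pass, with changes of -0.17 and 0.18. The fatty acid transporter Slc27a1 changed by 1.99 (adjusted p = 0.0302) with a second probe set at 1.22 (adjusted p = 0.029), Fabp4 by 0.89 (adjusted p = 0.0195) and the oxidation enzyme Echs1 by 0.69 (adjusted p = 0.0183). Further probe sets of Fabp4 did not pass (0.90 and 0.41).

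Of 33 genes of glycolysis and glycogen, 3 were called lower and 1 higher, where 3.20% and 2.20% of all genes were. Leaving out Clcn1-null mouse 3 gave 5 lower and 5 higher, and leaving out Clcn1-null mouse 1 gave 1 each way. Without Clcn1-null mouse 2 or any single BALB mouse, 1 was lower and none higher. Phka1, the muscle subunit of phosphorylase kinase, read 11.943, 12.004 and 11.519 in Clcn1-null mice, against 13.72, 13.55 and 13.63 in BALB wild type (-1.81, SE 0.16, adjusted p = 0.00558), and both of its other tested probe sets passed (-1.86 and -1.20). Pgm1, phosphoglucomutase, changed by -1.20 (adjusted p = 0.0263) and Pygm, muscle glycogen phosphorylase, by -0.56 (adjusted p = 0.0481). Gys1, glycogen synthase, read 12.71, 12.90 and 12.89, against 11.90, 11.67 and 11.92 (1.001, SE 0.13, adjusted p = 0.0141), though a second probe set did not pass (0.30, adjusted p = 0.42).

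In the mitochondrial lists the called share was no higher than the 5.40% of all genes. Idh2, the mitochondrial isocitrate dehydrogenase, was the 1 called of 23 genes of the TCA cycle (1.36, adjusted p = 0.0136, with a second probe set at 0.73 that did not pass), and Cox6a1 the 1 called of 44 genes of the respiratory chain and ATP synthase (0.91, adjusted p = 0.0252). The median changes were 0.25 and 0.14, and 16 of the 23 and 36 of the 44 genes had a change above 0. Every null mouse lay above every wild-type mouse in 12 of the 23 and 11 of the 44, against 14.3% of all genes. All null mice lay below in 1 gene of each list, against 16.7%. Gdap1 was the 1 called of 24 genes of the PGC-1 and mitochondrial biogenesis list. Smox, spermine oxidase, was the 1 called of 8 genes of polyamine metabolism and read 8.15, 7.88 and 7.91 in Clcn1-null mice, against 11.18, 11.04 and 11.25 in BALB wild type (-3.18, SE 0.14, adjusted p = 0.000949).

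Markers of fat cells were higher in Clcn1-null muscle. Of 16 tested adipocyte markers, 9 were called higher and none lower, 14 had every null mouse above every wild-type mouse (14.3% of all genes tested did), and the median change was 1.82. The mean log2 intensity over the 16 markers was 12.42, 12.14 and 12.11 in Clcn1-null mice, against 10.14, 10.68 and 10.87 in BALB wild type. Without Clcn1-null mouse 3 the count stayed at 9 and the median was 1.98. The count was 6 without Clcn1-null mouse 1, 5 without Clcn1-null mouse 2, 3 without BALB mouse 1, 8 without BALB mouse 2 and 2 without BALB mouse 3, while the median stayed between 1.64 and 1.98.

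Adipoq, the adipocyte hormone adiponectin, read 15.09, 14.71 and 15.06 in Clcn1-null mice, against 12.85, 13.03 and 13.07 in BALB wild type (1.97, SE 0.15, adjusted p = 0.00375). Cidec, a lipid droplet protein, read 12.24, 11.70 and 11.20, against 8.10, 8.78 and 8.66 (3.20, SE 0.32, adjusted p = 0.00691). Cidea, a lipid droplet protein typical of brown fat, read 11.755, 11.217 and 10.001, against 6.97, 6.77 and 8.59 (3.55, SE 0.64, adjusted p = 0.0346). The other called markers were Retn (2.56), Thrsp (2.04), Pparg (1.42), Plin4 (1.40), Lipe and Fabp4. Thrsp lost its call without Clcn1-null mouse 3 (adjusted p = 0.057), as did Pparg (adjusted p = 0.0544), and further probe sets of Thrsp did not pass (1.77 and 0.16). Ucp1, the defining gene of brown fat, read 6.09, 6.13 and 6.17 in Clcn1-null mice, against 6.33, 5.68 and 11.94 in BALB wild type, so BALB mouse 3 alone was high. Lipe, Fabp4, Slc27a1 and Pnpla2 are used by fat cells as well as by muscle fibres. The part of fat cells in the fatty acid results above was not tested.

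**Figure D4:**
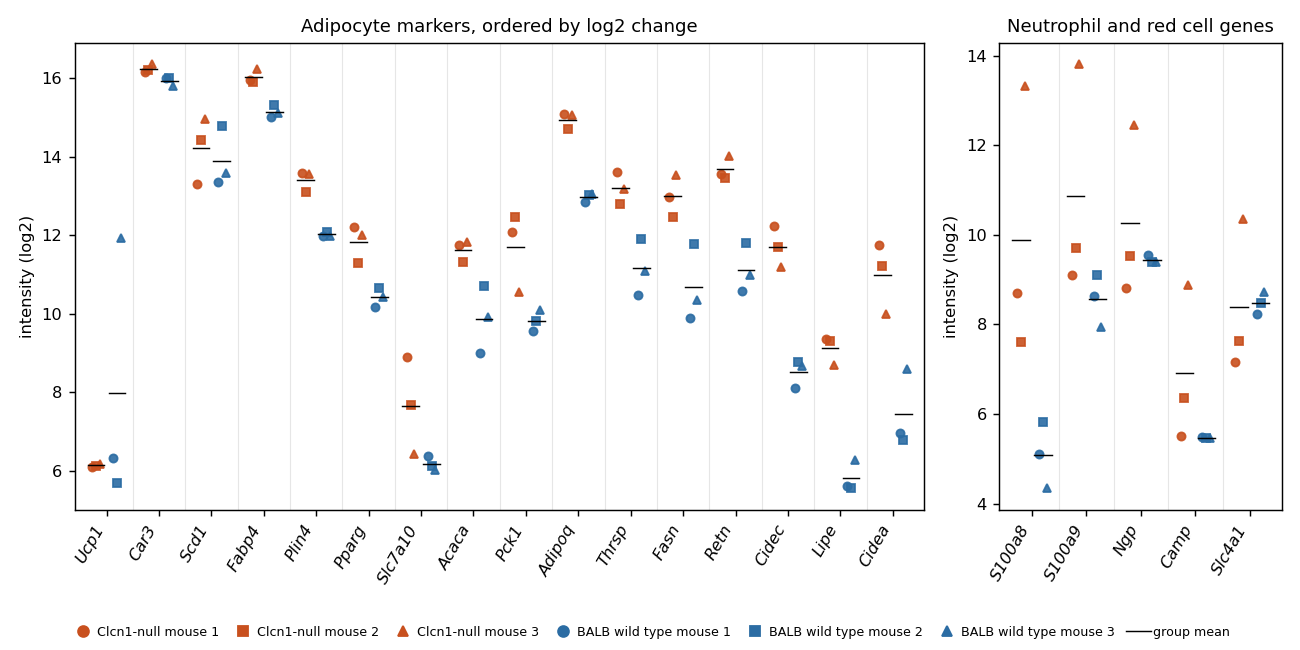
Log2 intensity in each mouse for the 16 tested adipocyte markers, ordered by log2 change (left), and for 5 neutrophil and red cell genes picked after their values were seen (right); orange symbols are Clcn1-null mice, blue symbols BALB wild-type mice, shapes give the mouse number and short lines the group means. All but Ucp1 and Scd1 of the adipocyte markers have the null mice above the BALB mice, and in the right panel Clcn1-null mouse 3 is the highest of all mice.

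The macrophage, endothelial, fibroblast, satellite cell and nerve lists held 1 or 2 calls each, where 5.40% of all genes were called. Of 23 macrophage and leukocyte markers only Cd68, a lysosomal protein of macrophages, was called, at 9.81, 10.23 and 9.84 in Clcn1-null mice, against 6.08, 7.37 and 6.67 in BALB wild type (3.25, SE 0.34, adjusted p = 0.00789). The median over that list was 0.14. Of 24 endothelial and mural markers Ramp2 (1.05) and Acta2 (0.64) were higher, of 20 fibroblast and tendon markers Cilp (1.84), of 13 satellite cell markers Itga7 (1.21) and of 11 nerve and Schwann cell markers Pmp22 (0.75). Of 17 markers of the muscle fibre itself, 3 were lower (Cacna1s, Casq1 and Pygm) and the median change was -0.27. The mean over those markers was 14.878, 14.933 and 15.003 in Clcn1-null mice, against 15.29, 15.15 and 15.35 in BALB wild type.

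Of 6 tested blood markers none was called and 1 had an unadjusted p under 0.05, as did 2855 of all 13244 genes tested. The mean of these markers was 9.20, 9.14 and 11.41 in Clcn1-null mice, against 8.53, 8.89 and 8.36 in BALB wild type. Clcn1-null mouse 3 was thus high in that list, and without it 1 blood marker was called higher (S100a8) and 1 lower (Slc4a1). Of 32 collagen and matrix genes, 3 were called higher, where 2.20% of all genes were. These were Postn, a matrix protein of remodelling tissue (1.61, adjusted p = 0.00904), Bgn, a small proteoglycan (1.53, adjusted p = 0.0226), and the matrix protease Mmp2 (1.03, adjusted p = 0.0309). Bgn and Mmp2 passed at every tested probe set. Leaving out BALB mouse 1 or BALB mouse 3 left no collagen and matrix gene called. In the dystrophin complex list, Aqp4, the water channel of fast fibres (1.33, adjusted p = 0.0178), and the laminin receptor Itga7 (1.21, adjusted p = 0.0471) were higher, as 2 of 16 genes. Of the 2 other tested probe sets of Aqp4 neither passed (1.47, adjusted p = 0.0974, and -0.05, adjusted p = 0.835).

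Of 24 tested genes of heat shock and folding, 3 were called higher and 2 lower, where 2.20% and 3.20% of all genes were. None of the 24 was called without BALB mouse 1 or BALB mouse 3. The median change was -0.40. Hspb7, a small heat shock protein of the sarcomere, read 14.94, 15.28 and 14.66 in Clcn1-null mice, against 12.99, 13.41 and 12.73 in BALB wild type (1.92, SE 0.23, adjusted p = 0.0117), and both other probe sets passed (1.88 and 1.99). Hspb1 changed by 1.21 (adjusted p = 0.0172) and Hspb6 by 0.83 (adjusted p = 0.0166). Hsph1, a large co-chaperone of HSP70, averaged 12.50 ± 0.43 in Clcn1-null mice, against 14.87 ± 0.30 in BALB wild type (SD, n = 3 each), a change of -2.37 (SE 0.26, adjusted p = 0.00928), and its partner Dnajb1 changed by -1.42 (adjusted p = 0.0235). A second probe set passed for Hsph1 (-3.14, adjusted p = 0.0496) and for Hspb1 (1.09, adjusted p = 0.0326) but not for Dnajb1 (-0.35, adjusted p = 0.33).

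Single genes were called in further lists, where 5.40% of all genes were called. Rbfox1, a splicing regulator of muscle and brain, was the 1 called of 22 splicing regulators and read 12.50, 12.21 and 11.87 in Clcn1-null mice, against 13.53, 13.62 and 13.74 in BALB wild type (-1.44, SE 0.18, adjusted p = 0.0136). Of its 3 other tested probe sets 1 passed (-1.34), and all had a change under 0. Ky, a muscle protein whose loss causes kyphoscoliosis in mice, was the 1 called of 18 genes of the junction and of denervation (-2.09, SE 0.12, adjusted p = 0.00216). In the same list the acetylcholine receptor gene Chrna1 changed by 0.34 (adjusted p = 0.418), and the fetal receptor subunit Chrng by 0.07 (adjusted p = 0.743). Psmc5 was the 1 called of 30 proteasome genes (-0.67, adjusted p = 0.0407), where the median change was -0.22.

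No gene was called by limma in 4 lists beside the blood markers, 1 of them the sex-linked list, of which only Xist was tested. Of 26 immediate-early genes 7 had an unadjusted p under 0.05, the first being Nr4a2, with 6.87, 6.64 and 5.21 in Clcn1-null mice, against 8.55, 9.85 and 8.08 in BALB wild type (-2.58, adjusted p = 0.0691). Of 18 clock genes 1 did, and of 22 complement and interferon genes 4 did. By comparison, 2855 of all 13244 genes tested did. In the fit without Clcn1-null mouse 3, 1 clock gene was called higher, and none of the immediate-early or complement and interferon genes was called. BALB mouse 2 was high in the immediate-early list. The list mean was 10.16, 10.09 and 9.50 in Clcn1-null mice, against 9.87, 11.08 and 9.74 in BALB wild type. The median change of that list was -0.062, and it was 0.185 without BALB mouse 2 and -0.405 without BALB mouse 3.

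**Figure D5:**
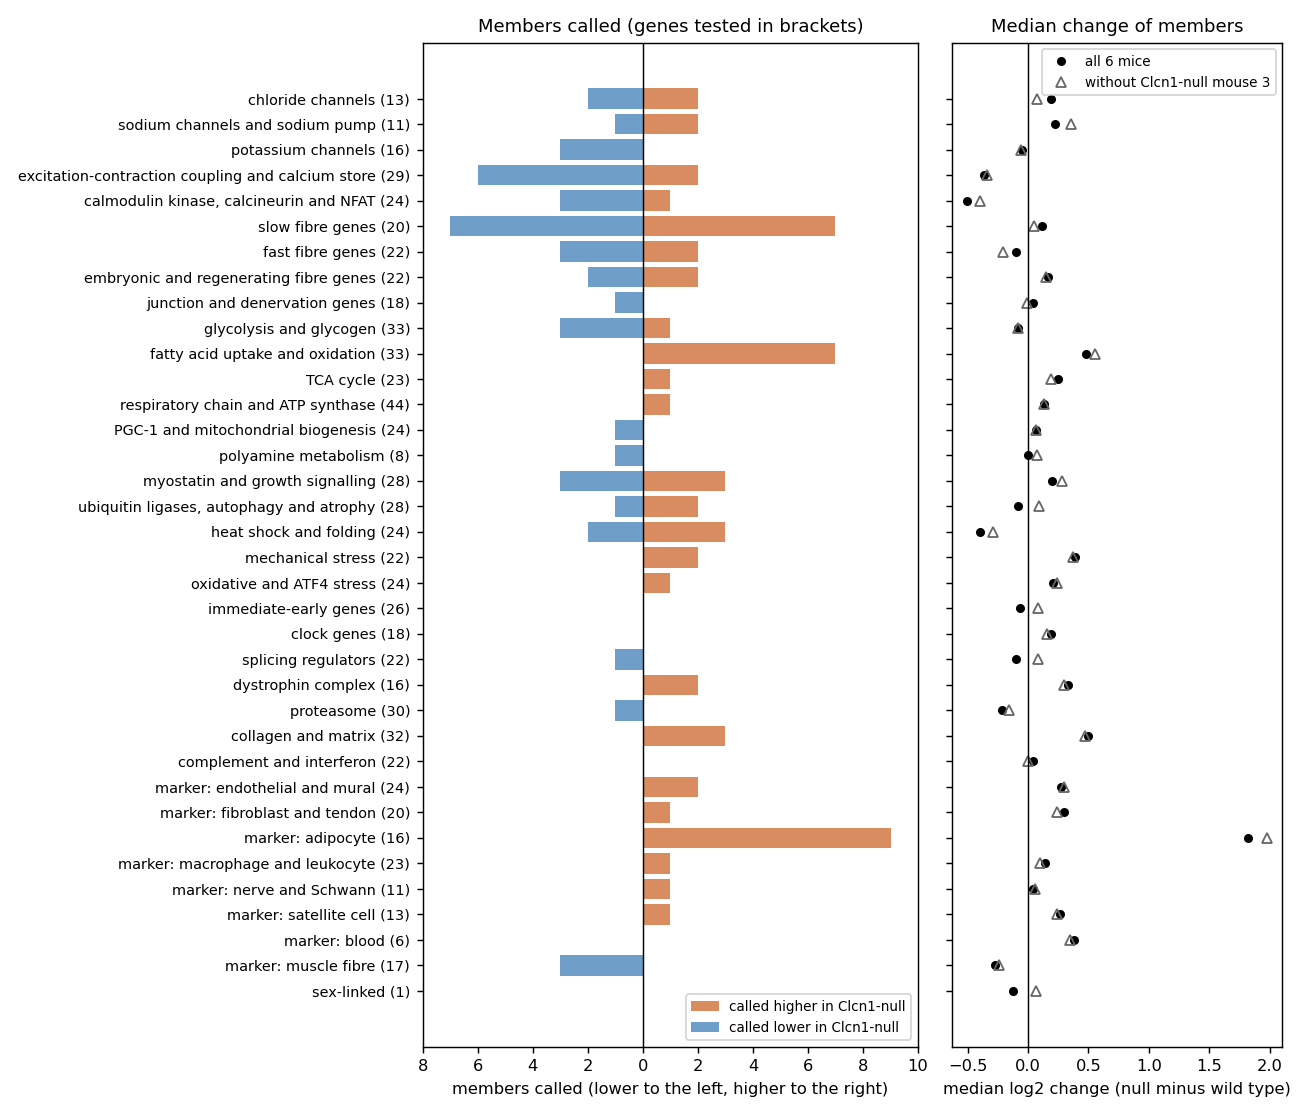
Number of members called lower (left bars) and higher (right bars) in Clcn1-null muscle for each of the 36 lists, with the genes tested in brackets, and the median log2 change of the tested members with all mice (filled) and without Clcn1-null mouse 3 (open). The adipocyte markers have the highest median (1.82), and the slow fibre genes the most calls (7 each way).

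The genes next to Clcn1 on chromosome 6 were looked at as a group. Among the 20 tested genes on each side of Clcn1, in the gene order of RefSeq, 1 was higher and 3 were lower (10% of 40). Within 50 genes on each side the share was 8% and within 100 it was 6%, against 5.41% of all genes with a position. Taken over every tested probe set, the shares were 6.35%, 4.76% and 4.27%, against 4.21%. The median absolute change of the 40 nearest genes was 0.24, against 0.27 over all genes. These counts rest on 4 to 12 called genes. Over whole chromosomes the called share ran between 2.82% (chromosome 17) and 8.49% (chromosome 3).

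The other models of the series, on the FVB strain and measured against their own wild-type mice, share no mouse with this comparison. Their fits called 19.8% of tested genes in line 20b, 9.48% in line 41 and 16.3% in Mbnl1-null mice. Of 697 genes called in Clcn1-null muscle and tested in experiment 1, 313 (44.9%) were also called in line 20b, where 20.9% of all genes tested in both were, and these make up 12.5% of the line 20b calls. The direction was the same in 233 and opposite in 80. For line 41, which shares its wild-type mice with line 20b, 140 (20.1%) were called, 106 in the same direction and 34 in the opposite one, and they make up 11.6% of its calls. For Mbnl1-null mice 239 of 644 (37.1%) were called, 215 in the same direction and 24 in the opposite one, and they make up 16.5% of its calls.

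Examples picked after their values were seen show genes with the same and with other directions. Sln was higher in all of them, by 7.34 in line 20b, 6.91 in line 41 and 4.77 in Mbnl1-null mice, beside 4.00 in Clcn1-null mice. Gdap1 was lower in all (-2.99, -1.17 and -2.09, beside -6.80), as were Mettl11b (-1.61, -0.96 and -3.01, beside a level at least 269-fold lower) and Kcnab1 (-4.68, -2.02 and -4.43, beside -2.05). Myh3 was higher in all (1.06, 1.29 and 1.89, beside 3.12).

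Other named genes were not called in some models or moved the other way there. Mss51, at -7.88 in Clcn1-null mice, was not called in line 20b (0.22), line 41 (0.26) or Mbnl1-null mice (0.41). Kcnc4, at -1.88, was called higher in each of the others (1.24, 0.74 and 0.78), and so was Kcnq5, at -1.15 (0.82, 0.62 and 0.58). Cidec, at 3.20, was lower in line 20b (-1.59) and not called in line 41 (-0.65) or Mbnl1-null mice (-0.95). Myh7, at -4.11, was also lower in Mbnl1-null mice (-4.61) and not called in line 20b (0.64) or line 41 (1.10). The experiments differ in strain, in scale and in the sex-linked genes described above, experiment 1 also in age and experiment 3 also in array type, and the differences between these effects were not tested.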

How the data were processed

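RNA of 6 mice was measured on 12 arrays. The authors deposited linear probe set intensities, made with GCRMA per the submitters' processing notes. The version and settings of GCRMA are not given in the sources used here. From these, log2 intensities were computed. Probe sets with exactly 1 symbol in the supplied platform annotation were kept (34945 of 45037, with 932 holding several symbols and 9160 unnamed), and symbols were updated through RefSeq, which held 34741 of their gene IDs. Each of 18193 genes was represented by its probe set of highest average log2 intensity across experiments. A gene was tested when it reached a log2 intensity of 5 (an intensity of 32) in at least 3 mice.

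Groups were taken from the titles, and each group has 3 separate mice. The 2-sided comparison used lmFit and trended eBayes of limma 3.58.1 (R 4.3.3) with no covariate. Benjamini-Hochberg adjustment covered the genes of both arrays at once. The other models were fitted in the same way within their own experiments. The fit was tested on simulated data. A group under an intensity of 32 in all its mice gives its fold change as a bound against 32.

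Named genes were Clcn1, Mbnl1, Acta1, the 20 largest called changes each way (passing over most clone and model identifiers), and up to 5 called members of each of 36 lists, or where none was called the 2 with the smallest p. Genes named beyond that rule were chosen after their values were seen. The members and lists were chosen with earlier results of these data known. Lists are described by counts and medians, with no test.

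Titles number the mice 1 to 3 in each group. Same-numbered mice did not deviate together (r = -0.18, 0.08 and 0.01), so the numbers were not taken as pairs. The titles do not say whether they are, and with so few mice these correlations cannot settle it. Titles also join a mouse's 430A array to its 430B array. By 1253 genes present on both, 4 of 6 mice were best matched to their own number, but no gene's value combines the arrays.

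Alternatives covered normalisation, filter, probe set choice, moderation, array weights, offset, pooling of experiments, threshold, a replicate block and leaving out each mouse.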

Additional observations from a re-analysis of the deposited data

How the results depend on the processing

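The counts of called genes depended on the spread estimate and on single mice. Of the 715 called genes, 4 changed sign when the probe set with the highest mean in experiment 2 stood for the gene, and none did under the other alternatives in which the same genes were followed. Set against 291 higher and 424 lower genes, quantile normalisation gave 439 higher, testing every probe set separately 445 higher and 646 lower, one fit with experiments 1 and 2 gave 1336 and 2024, and array weights, whose estimation did not converge, 2295 and 2290. Thresholds of 0.01 and 0.1 on the adjusted p gave 60 and 101, and 584 and 774. Leaving out 1 mouse gave 35 to 762 higher and 59 to 829 lower genes. With the mouse number as a replicate block, 77 genes were higher and 114 lower. In that fit 52 of 106 called genes named beside Clcn1 lost the call. Whether the numbers pair mice is not known. The other alternatives stayed within 1.5 times. Leaving out BALB mouse 1 cost 74 of those 106 genes their call and leaving out BALB mouse 3 cost 80. None of the 106 reversed in any setting tried. Genes named outside the naming rule were not followed singly.

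Clcn1 changed by -1.42 also without a filter (adjusted p = 0.0569), with every probe set tested (0.0507) and with the replicate block (0.11), and lost its call there. Leaving out 1 mouse gave changes between -1.71 and -1.20. The median change of all genes was 0.02, and -0.05 after a median shift. With 3 mice a group, small changes and genes near an intensity of 32 are not resolved.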
